A study of Mus musculus with 27 samples.

Results

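A/J and C57BL/6J are inbred laboratory mouse strains whose hepatocyte transcriptomes were compared, with 3 A/J libraries (replicates 1, 2 and 3) set against 3 C57BL/6J libraries (replicates 1, 2 and 4). These 6 libraries were chosen by their strain labels and their columns in the series' table of gene counts, out of 27 libraries from 9 strains with 3 libraries each. Every library is polyadenylated RNA from liver cells labelled hepatocytes, taken from a female mouse aged 12 weeks and labelled a biological replicate. The labels name no treatment, transgene or diet for either strain. The wider study related strain differences in histone marks, DNA methylation and expression to one another, and only the expression table was used here.

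C57BL/6J mice become obese, insulin resistant and steatotic on fat-rich diets, whereas A/J mice are known for resisting these changes, so the pair has long served to map loci for metabolic disease. In the hepatocyte, lipogenesis makes fatty acids from acetyl-CoA through ATP citrate lyase, acetyl-CoA carboxylase and fatty acid synthase. Stearoyl-CoA desaturase then makes monounsaturated chains, and the transcription factors SREBP-1c and ChREBP drive these genes after feeding. The same cells oxidise fatty acids in mitochondria and peroxisomes, secrete most plasma proteins, and clear drugs and steroids with cytochromes P450 and conjugating enzymes, many of which sit in tandem gene arrays that differ between strains. Levels below are CPM values, that is, estimated counts relative to the library's total after TMM scaling. They are not scaled by gene length, so they compare strains for 1 gene and not genes with each other. Fold changes are log2 values, A/J minus C57BL/6J, from edgeR's quasi-likelihood test fitted to all 27 libraries. A gene was called at a Benjamini-Hochberg adjusted p under 0.05 over all 14482 genes tested. Values for single libraries are given in the order A/J 1, 2, 3 and C57BL/6J 1, 2, 4.

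The 6 libraries held between 23757469 and 35078483 counts, so 1 count was worth 0.0342 to 0.0468 CPM. The sum of 16 hepatocyte markers did not overlap between the strains, at 259392 to 361888 CPM in A/J and 164494 to 206029 CPM in C57BL/6J, of which Alb alone made up a mean of 229352 and 130430 CPM. Of the 16 markers 9 had fitted values above 0 and 7 below, with a median of 0.10. At an unadjusted p under 0.05, which 19.3% of all genes tested passed, 5 were higher and 1 lower. Of these markers 3 were called (18.8%, against 7.84% of all genes tested), all higher in A/J (Alb, Serpina1a and Serpina1c, described with the plasma proteins). Without A/J replicate 3 or without any 1 C57BL/6J library 0 were called. The libraries, which carry the label female, held 0 counts of Ddx3y and of Eif2s3y, both on chromosome Y. Of 4 genes assigned to chromosome Y that passed the filter, all with fractional counts in all 6 libraries, Gm37158 and Gm47283 were called lower in A/J; both were chosen after their values were seen. The libraries of each strain varied. For C57BL/6J replicate 1 the chi-square per degree of freedom of its counts against replicates 4 and 2 was 104.1 and 90.6, against 24.4 between those 2, and the A/J pairs lay at 46.8, 60.2 and 67.4. The correlation of log2 CPM was 0.9728 and 0.9759 for that library with its strain and 0.9844 for the other pair, and 0.9681 and 0.9664 for A/J replicate 1 with its strain against 0.9756 for the other A/J pair. Xist was at 145, 579 and 616 CPM in C57BL/6J. Marker RNA of other liver cells was present. The sums overlapped between the strains for each of these cell types listed except cholangiocytes. The summed CPM of 19 Kupffer cell and macrophage markers ranged from 262 to 614 in A/J and from 322 to 410 in C57BL/6J. That of 22 endothelial markers ranged from 292 to 583 and from 389 to 676, and that of 16 stellate cell and fibroblast markers from 112 to 198 and from 77.6 to 124. The fitted values were below 0 for 15 of 19 Kupffer markers (median -0.32), although the mean Kupffer sum was 420 CPM in A/J and 380 CPM in C57BL/6J, and for 18 of 22 endothelial markers (median -0.31). Of 15 stellate markers tested 13 had fitted values above 0, with a median of 0.63. With 1 library left out these medians ranged from -0.66 to -0.06, from -0.61 to -0.10 and from 0.31 to 0.84. Of the stellate markers 5 were called, all higher, with the mean log2 CPM of the Kupffer and of the endothelial markers as covariates. None of those markers was at 0 in all 6 libraries. The only called gene of these 3 lists was Mpeg1 (a macrophage pore-forming protein, log2 fold change 1.47, SE 0.34, adjusted p = 0.00645, adjusted p = 0.0909 without A/J replicate 2), and A/J replicate 2 held the highest Kupffer sum. DESeq2 called 1 stellate and 0 endothelial genes, and at an unadjusted p under 0.05 there were 2 and 1. Lymphocyte markers summed to at most 13.5 CPM, neutrophil markers to at most 2.11 CPM and erythroid markers to at most 36.3 CPM. The sum of 8 cholangiocyte markers did not overlap, at 13.1, 11.5 and 7.98 CPM in A/J and 18.3, 13.6 and 14.8 CPM in C57BL/6J. Of these 8 markers 1 was at 0 in all 6 libraries, all 3 that passed the filter had fitted values below 0, and Spp1, which encodes osteopontin, was called (log2 fold change -1.29, SE 0.35, adjusted p = 0.0222), though not without any 1 library other than C57BL/6J replicate 1 (adjusted p from 0.0525 to 0.0819). The part of cholangiocytes in the strain differences was not tested. In bulk RNA, fewer cells of a type and less RNA per cell cannot be told apart.

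Between the strains, 1135 genes were called, 7.84% of those tested: 552 were higher in A/J (3.81%) and 583 lower (4.03%). The difference was at least 2-fold for 735 of them and at least 8-fold for 289. For 1095 of them (7.56% of genes tested) the 3 A/J and 3 C57BL/6J libraries did not overlap, and 2874 of all genes tested (19.8%) did not. DESeq2 called 1370 genes (9.46%). Without C57BL/6J replicate 1 the count was 918, with 417 higher and 501 lower. Among the autosomes and chromosome X, the share called ran from 4.49% of the genes tested on chromosome X to 11% on chromosome 4; on the mitochondrial genome it was 0 of 15 genes, on chromosome Y 2 of 4, and among genes not in the annotation 16 of 130 (12.3%). Processed pseudogenes were called in 87 of 465 cases, 74 of them higher in A/J and 13 lower, while protein-coding genes were called in 935 of 12820 cases (7.29%). Pseudogenes and tandem copies share sequence with their parent genes, and 24.7% of called genes against 17.9% of tested genes had estimated counts that were not whole numbers in all 6 libraries, as arises when reads are divided among copies. Among genes with whole counts in all 6 libraries, 611 of 9333 were called (6.55%).

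**Figure D1:**
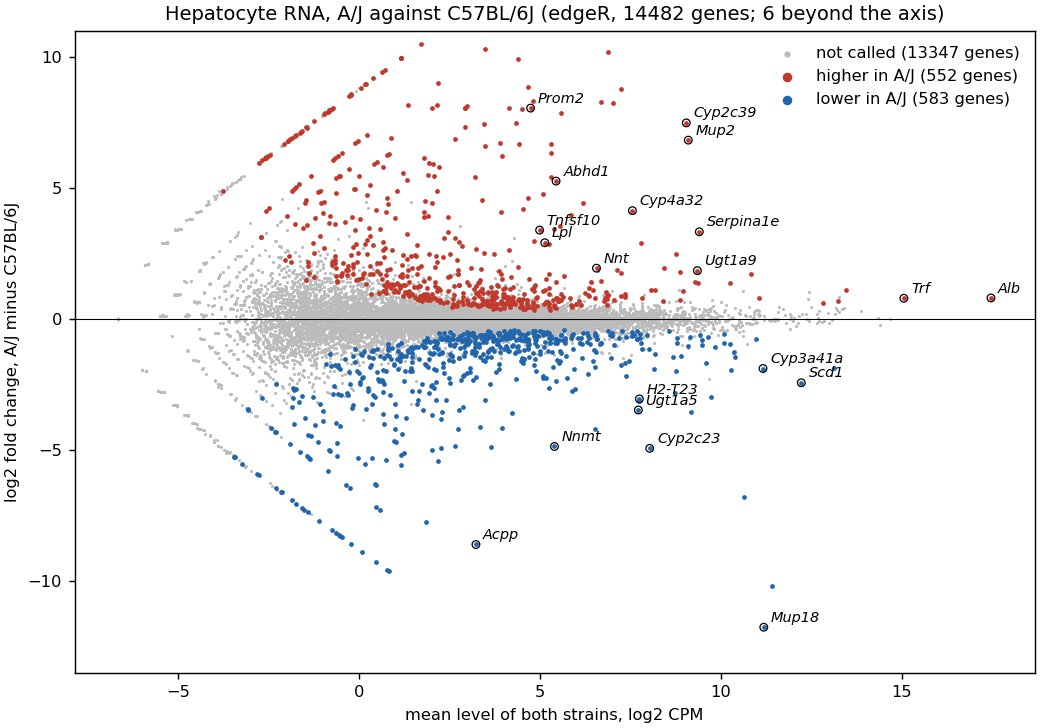
Each point is 1 of 14482 genes, with the mean level of both strains (log2 CPM) on the horizontal axis and the log2 fold change, A/J minus C57BL/6J, on the vertical axis; red points were called higher in A/J (552), blue points lower (583), and circled genes are named. Large differences occur in both directions, for example Cyp2c39 (7.50) and Mup18 (-11.76), and 6 genes lie beyond the axis; the straight diagonal edges are genes with no counts in 1 strain.

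Known strain differences served as a check of the labels. C57BL/6J carries a deletion within Nnt, the mitochondrial transhydrogenase that makes NADPH, and Nnt (ENSMUSG00000025453, GRCm38 chromosome 13, 119335448 to 119408997) was at 147, 148 and 155 CPM in A/J and 42.9, 37.4 and 36.2 CPM in C57BL/6J. For Nnt the log2 fold change was 1.95 (SE 0.13, adjusted p = 8.45e-11). The C57BL/6J mean was below that of all 7 other strains, which ranged from 103 to 166 CPM. Glo1, the methylglyoxal-detoxifying glyoxalase that is duplicated in A/J, was at 1089, 714 and 1043 against 414, 345 and 328 CPM. For Glo1 the log2 fold change was 1.39 (SE 0.16, adjusted p = 1.06e-06). Hc encodes complement C5, which A/J lacks through a frameshift, and stood at 302, 373 and 431 against 752, 1418 and 1365 CPM. For Hc the log2 fold change was -1.68 (SE 0.22, adjusted p = 5.27e-06). Dysf, the membrane repair protein disrupted in A/J by a retrotransposon, was low in both strains, with means of 0.487 and 2.70 CPM (log2 fold change -2.47, SE 0.47, adjusted p = 0.000863). Naip5, the inflammasome sensor whose A/J allele is permissive for Legionella, was at a mean of 0.826 and 1.07 CPM and was not called (log2 fold change -0.38, SE 0.63, adjusted p = 0.842). No alternative ended the call of Nnt, Glo1, Hc or Dysf.

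Within drug and steroid metabolism, several of the largest strain differences were in members of gene families, some of them in tandem arrays. Cyp2c39 (ENSMUSG00000025003, GRCm38 chromosome 19, 39510862 to 39568529, plus strand), a P450 that hydroxylates retinoic acid, lies beside Cyp2c38 (ENSMUSG00000032808, 39389556 to 39463075, minus strand), and both were higher in A/J. The 250 bases upstream of their RefSeq start sites are shown because the neighbours differ so much in the size of the strain difference; they are reference (C57BL/6J) sequence of build GRCm38.p6, at chr19:39510572-39510821 and chr19:39463076-39463325, each written 5′ to 3′ on its gene's own strand.
Cyp2c39: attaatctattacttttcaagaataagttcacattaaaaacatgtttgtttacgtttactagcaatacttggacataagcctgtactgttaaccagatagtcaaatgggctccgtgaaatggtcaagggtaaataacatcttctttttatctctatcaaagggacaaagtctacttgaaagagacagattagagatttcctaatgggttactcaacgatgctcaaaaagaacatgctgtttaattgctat
Cyp2c38: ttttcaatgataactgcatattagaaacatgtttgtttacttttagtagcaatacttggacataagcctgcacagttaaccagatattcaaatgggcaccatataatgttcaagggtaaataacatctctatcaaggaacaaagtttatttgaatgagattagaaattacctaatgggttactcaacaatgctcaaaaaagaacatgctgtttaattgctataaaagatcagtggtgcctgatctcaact
A global alignment of the windows was identical at 198 of 279 columns (71%), counting columns where a window has a gap. Neither window held the letters CAAAGTCCA, a form of the HNF4A site found on either strand in 0.384% of 32851 RefSeq windows of this length. With letters so rare, their absence tells little, and HNF4A binding was not tested.

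Cyp2c39 was at 907, 1132 and 1110 CPM in A/J and at 5.503, 6.24 and 5.64 CPM in C57BL/6J. For Cyp2c39 the log2 fold change was 7.50 (SE 0.24, adjusted p = 6.95e-17). The A/J libraries were all far above, and C57BL/6J was the low strain: its mean was under that of the 7 other strains, with CAST/EiJ lowest (84.9 CPM) and WSB/EiJ highest (1140 CPM). Cyp2c38 was at 195, 242 and 259.7 against 74.7, 59.99 and 69.8 CPM. For Cyp2c38 the log2 fold change was 1.77 (SE 0.18, adjusted p = 7.27e-08). Counts of this pair were fractional in 5 of the 6 libraries, so some reads could belong to either gene, but their sum also differed, with means of 1282 and 73.9 CPM. Cyp2c23 (ENSMUSG00000025197, chromosome 19, 44005022 to 44029208), which makes epoxides of arachidonic acid, went the other way at 17.4, 17.9 and 14.5 against 438, 507 and 577 CPM (log2 fold change -4.93, SE 0.29, adjusted p = 4.42e-12), with whole counts in all 6 libraries. The NOD/ShiLtJ, NZO/HlLtJ and DBA/2J libraries were also low, and the lowest strain mean was 11.8 CPM in NOD/ShiLtJ.

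Of 62 drug-metabolizing P450 list genes tested, 6 were higher and 10 lower in A/J, 25.8% against the background of 7.84%, with a list median of -0.22 against 0 for all genes tested. The count depended on single libraries: 4 were higher and 4 lower without A/J replicate 1, and 4 and 5 without C57BL/6J replicate 2. The median ranged from -0.31 to -0.08 over the fits that left out 1 library, and was nearest 0 without C57BL/6J replicate 4. Lower in A/J beside Cyp2c23 were Cyp3a13 (log2 fold change -2.16, SE 0.26, adjusted p = 1.98e-06), the vitamin D 25-hydroxylase gene Cyp2r1 (log2 fold change -1.36, SE 0.25, adjusted p = 0.000425), Cyp2c37 (log2 fold change -1.25, SE 0.28, adjusted p = 0.00361) and Cyp2c55 (log2 fold change -2.04, SE 0.51, adjusted p = 0.0104). Cyp2c55 was not called without A/J replicate 1 (adjusted p = 0.0598) or 2 (adjusted p = 0.0527). Ahr, the receptor for aryl hydrocarbons, was at 12.8, 17.1 and 19.5 against 29.98, 33.3 and 22.3 CPM (log2 fold change -0.79, SE 0.20, adjusted p = 0.0144), and lost its call without A/J replicate 1, C57BL/6J replicate 1 or C57BL/6J replicate 2, with adjusted p from 0.0503 to 0.0955. Higher in A/J were Cyp3a25 (log2 fold change 1.40, SE 0.23, adjusted p = 0.00013) and Cyp2d9, a testosterone hydroxylase (log2 fold change 2.90, SE 0.69, adjusted p = 0.00719). The summed level of the P450 list nevertheless overlapped between the strains, from 38629 to 51920 CPM in A/J and from 39218 to 49205 CPM in C57BL/6J.

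Another array holds differences in both directions within a single locus. The Ugt1a genes encode glucuronosyltransferases, which attach glucuronic acid to bilirubin, steroids and drugs; each has its own promoter and leading exon and all share the downstream exons, so reads from the shared part cannot name the member. The upstream windows of the 3 called members are shown because their transcripts differ by the promoter used. They lie at chr1:88070529-88070778, chr1:88165762-88166011 and chr1:88211709-88211958 (GRCm38.p6, RefSeq, plus strand).
Ugt1a9: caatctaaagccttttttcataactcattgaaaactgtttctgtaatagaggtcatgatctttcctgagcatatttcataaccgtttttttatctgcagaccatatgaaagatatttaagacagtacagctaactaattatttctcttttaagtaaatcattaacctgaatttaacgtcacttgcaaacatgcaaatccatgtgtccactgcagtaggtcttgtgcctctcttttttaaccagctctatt
Ugt1a5: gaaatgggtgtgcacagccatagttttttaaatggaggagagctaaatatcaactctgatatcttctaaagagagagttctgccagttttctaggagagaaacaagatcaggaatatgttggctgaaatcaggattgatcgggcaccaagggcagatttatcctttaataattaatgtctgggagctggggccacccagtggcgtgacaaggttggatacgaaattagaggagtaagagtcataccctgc
Ugt1a1: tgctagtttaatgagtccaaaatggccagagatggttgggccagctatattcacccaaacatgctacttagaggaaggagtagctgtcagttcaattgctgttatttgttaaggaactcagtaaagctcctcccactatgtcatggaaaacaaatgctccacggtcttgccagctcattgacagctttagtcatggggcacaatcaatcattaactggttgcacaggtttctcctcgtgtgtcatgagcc
Pairs of these windows were identical at 44.7 to 47.1% of alignment columns, counting columns where a window has a gap.

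Ugt1a9 (ENSMUSG00000090175) was at 971, 947 and 1145 CPM in A/J and 297, 261 and 289 CPM in C57BL/6J. For Ugt1a9 the log2 fold change was 1.85 (SE 0.30, adjusted p = 9.67e-05). Ugt1a5 (ENSMUSG00000089943) was at 26.99, 24.3 and 53.6 against 205, 446 and 509 CPM (log2 fold change -3.47, SE 0.46, adjusted p = 6.75e-06), and C57BL/6J exceeded all 7 other strains. Ugt1a1 (ENSMUSG00000089960), the bilirubin-conjugating form, was at 712, 829 and 961 against 1420, 1768 and 1658 CPM. For Ugt1a1 the log2 fold change was -0.95 (SE 0.23, adjusted p = 0.00709). None of the 3 genes overlapped between strains, and the sum over the family's 8 genes was 1898 to 2449 CPM in A/J and 2195 to 2904 CPM in C57BL/6J. Of 81 genes tested on the list of conjugation and other drug metabolism, 4 were higher and 12 lower in A/J (19.8%, against 7.84% of all genes tested), and 2 and 8 without C57BL/6J replicate 1. The 12 included sulfotransferases, which attach sulfate to their substrates: Sult2a7 (log2 fold change -4.12, SE 0.44, adjusted p = 2.59e-07), Sult5a1 (log2 fold change -3.09, SE 0.43, adjusted p = 1.6e-05), Sult3a1 (log2 fold change -1.60, SE 0.27, adjusted p = 0.000166) and Sult2a2 (log2 fold change -1.59, SE 0.39, adjusted p = 0.0101). Sult2a2 lost its call without A/J replicate 3 (adjusted p = 0.0761) or C57BL/6J replicate 1 (adjusted p = 0.0622). Within the same Sult2a array, Sult2a6 went the other way, with 594 counts over the A/J libraries against 2 over the C57BL/6J libraries. Scaled by library size, the ratio was 335 (95% counting interval 92.4 to 2770). The summed level of the 8 Sult2a genes overlapped, from 272 to 524 CPM in A/J and from 337 to 722 CPM in C57BL/6J. Since tandem copies share sequence, single members are less certain than this sum. The ethanol-oxidising enzyme gene Adh1 was at 704, 554 and 505 against 1519, 1224 and 949 CPM. For Adh1 the log2 fold change was -1.07 (SE 0.21, adjusted p = 0.00145). The carboxylesterase gene Ces1b was higher in A/J (log2 fold change 1.96, SE 0.22, adjusted p = 7.87e-07).

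**Figure D2:**
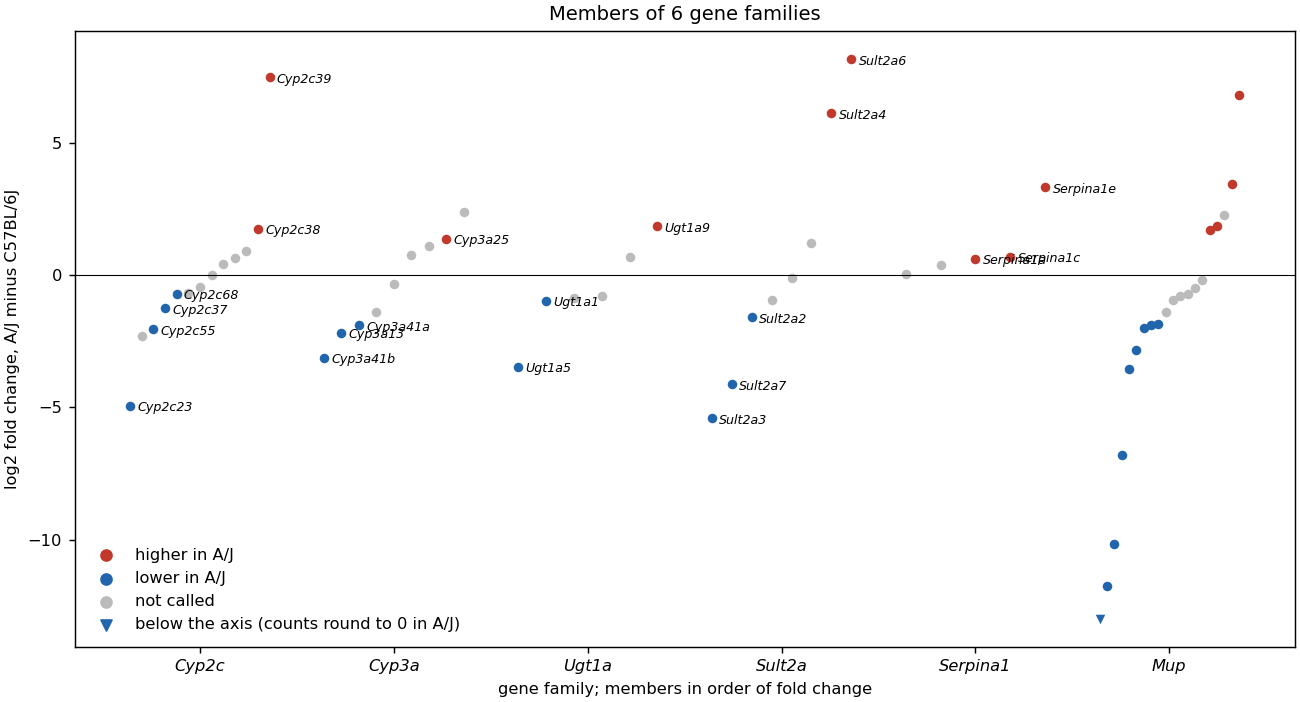
Log2 fold change, A/J minus C57BL/6J, of the tested members of 6 gene families, each family's members ordered from low to high; red marks members called higher in A/J, blue lower, grey not called, and the triangle is Mup15, whose estimated counts round to 0 in A/J. Called members of the Cyp2c, Cyp3a, Ugt1a, Sult2a and Mup families lie on both sides of 0, and those of Serpina1 lie above it.

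The called genes of fatty acid synthesis were all lower in A/J, and their number changed with the libraries used. Of 31 lipogenesis genes tested, 0 were higher and 5 lower in A/J (16.1%, against 7.84% of all genes tested), with a median of -0.35. Of the 31, 21 had fitted values below 0. Without A/J replicate 2 the calls were 1 higher and 3 lower, and on the 6 libraries alone 0 higher and 2 lower. The median was -0.13 without C57BL/6J replicate 2. At an unadjusted p under 0.05, which 19.3% of all genes tested passed, 2 were higher and 13 lower. DESeq2, which called 9.46% of all genes tested, called 1 higher and 7 lower. Scd1 (ENSMUSG00000037071, chromosome 19, 44394455 to 44407879), the main hepatic stearoyl-CoA desaturase, was at 1396, 1315 and 1777 CPM in A/J and 2695, 8344 and 13081 CPM in C57BL/6J. For Scd1 the log2 fold change was -2.43 (SE 0.53, adjusted p = 0.00347). The strains did not overlap, C57BL/6J replicate 1 was the lowest of its strain, and without that library the log2 fold change was -2.84 (adjusted p = 0.000554). Acss2, which makes acetyl-CoA from acetate, was at 70.7, 65.3 and 97.3 against 83.5, 297 and 362 CPM (log2 fold change -1.67, SE 0.38, adjusted p = 0.0049); C57BL/6J replicate 1 lay within the A/J range, and without it the log2 fold change was -2.08 (adjusted p = 6.83e-05). Acsl3, a long-chain acyl-CoA synthetase, was at 27.9, 16.99 and 26.98 against 31.3, 64.8 and 73.1 CPM (log2 fold change -1.23, SE 0.26, adjusted p = 0.00266). Acacb, the carboxylase whose malonyl-CoA restrains mitochondrial fat oxidation, was lower (log2 fold change -1.17, SE 0.32, adjusted p = 0.0224), as was the NADPH-making malic enzyme Me1 (log2 fold change -0.89, SE 0.24, adjusted p = 0.0184). The call of Acacb was lost without A/J replicate 1, A/J replicate 2 or C57BL/6J replicate 4 (adjusted p from 0.107 to 0.176), and that of Me1 without A/J replicate 2, A/J replicate 3 or C57BL/6J replicate 1 (adjusted p from 0.0756 to 0.113).

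Fasn, fatty acid synthase itself, was at 276, 205 and 559 CPM in A/J and 387, 986 and 865 CPM in C57BL/6J and missed the threshold (log2 fold change -1.11, SE 0.35, adjusted p = 0.0542). It passed without C57BL/6J replicate 1 (-1.42, adjusted p = 0.0109) and without A/J replicate 3 (adjusted p = 0.00559). Elovl6, the elongase of palmitate, behaved alike, with log2 fold change -1.26, SE 0.43, adjusted p = 0.0749 in all libraries and an adjusted p of 0.0156 without C57BL/6J replicate 1. Acly, the citrate lyase, gave log2 fold change -0.73, SE 0.27, adjusted p = 0.109, and 0.0235 as the adjusted p without that library. The regulators showed smaller values: log2 fold change -0.39, SE 0.33, adjusted p = 0.609 for Srebf1, which encodes SREBP-1c, and log2 fold change 0.12, SE 0.28, adjusted p = 0.899 for Mlxipl, which encodes ChREBP, and neither was called. Without C57BL/6J replicate 1, 8 of the lipogenesis genes were called.

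No cholesterol gene passed the test, although most fitted values were below 0. Of 28 genes of cholesterol synthesis and uptake, 27 had fitted values below 0 (all but Scap), the median was -0.68, and edgeR called 0, while 11 were lower and 0 higher at an unadjusted p under 0.05 (19.3% of all genes passed that level in either direction) and DESeq2 called 2, both lower. Without C57BL/6J replicate 1, 5 genes of the list were called, and without A/J replicate 3 there were 2. The list median ranged from -0.43 to -0.996 over the 6 fits that left out 1 library each. Sqle, squalene epoxidase, was at 52.2, 23.5 and 108 CPM in A/J and 52.7, 219 and 177 CPM in C57BL/6J. For Sqle the log2 fold change was -1.29 (SE 0.66, adjusted p = 0.302). The lowest C57BL/6J value, that of replicate 1, fell inside the A/J range. The summed level of the list was 3373 to 6044 CPM in A/J and 4045 to 8389 CPM in C57BL/6J, so the strains overlapped.

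**Figure D3:**
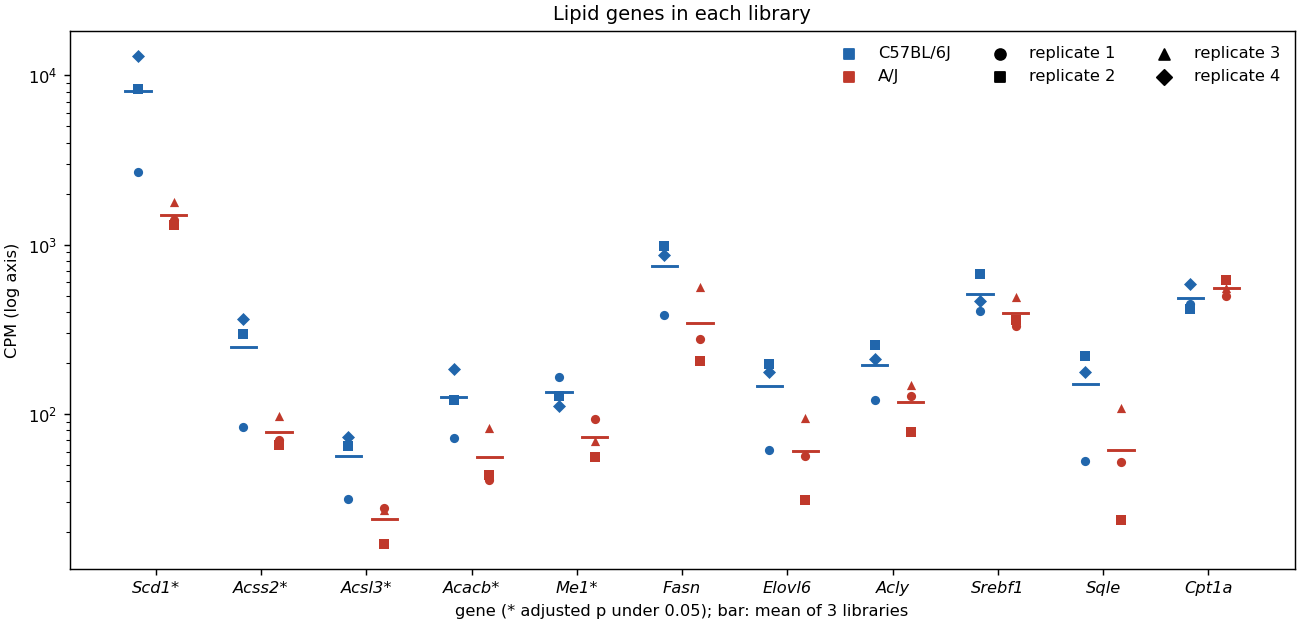
CPM on a log axis of 11 lipid genes in each of the 6 libraries, with C57BL/6J in blue and A/J in red, the replicate number as the marker shape and each strain's mean as a bar; asterisks mark called genes. C57BL/6J replicate 1 (blue circle) lies near the A/J libraries for Scd1, Acss2, Fasn and Sqle, and the strains do not overlap for Scd1 or Acsl3.

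Of 48 genes of fatty acid oxidation tested, 1 was higher and 2 lower in A/J, a share (6.25%) near the 7.84% of all genes. The median of -0.07 changed sign without A/J replicate 3 (0.09) or C57BL/6J replicate 1 (0.22). Cyp4a32, a fatty acid omega-hydroxylase, was at 376, 316 and 377 CPM in A/J and 18.7, 17.9 and 23.7 CPM in C57BL/6J (log2 fold change 4.15, SE 0.38, adjusted p = 1.79e-08); its counts were fractional and it has near-identical copies, and the sum of Cyp4a31 and Cyp4a32 was 372 against 34.3 CPM. Pdk4, a kinase that shuts pyruvate out of oxidation, was lower in A/J (log2 fold change -1.44, SE 0.44, adjusted p = 0.0427), with overlapping libraries and no call without A/J replicate 2, A/J replicate 3, C57BL/6J replicate 1 or C57BL/6J replicate 4 (adjusted p from 0.0783 to 0.278). Ppara, the nuclear receptor that drives these genes, and Cpt1a, the carnitine transferase that admits fatty acids to mitochondria, were not called (log2 fold change -0.30, SE 0.27, adjusted p = 0.645 and log2 fold change 0.21, SE 0.23, adjusted p = 0.722).

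Lipid droplet genes gave 0 higher and 2 lower of 31 tested by edgeR (6.45%, also near 7.84%; 1 without A/J replicate 1 or C57BL/6J replicate 4), 1 higher and 7 lower at an unadjusted p under 0.05, and 0 higher and 3 lower by DESeq2. Fitm1, an endoplasmic reticulum protein that promotes droplet formation, was low in both strains at 0.502, 0.562 and 1.11 against 6.08, 4.07 and 4.37 CPM. For Fitm1 the log2 fold change was -2.72 (SE 0.40, adjusted p = 5.17e-05). The arylacetamide deacetylase Aadac, implicated in mobilising stored triglyceride, was at 318, 306 and 384 against 421, 598 and 637 CPM (log2 fold change -0.72, SE 0.19, adjusted p = 0.0202), and lost its call without A/J replicate 1, A/J replicate 2, C57BL/6J replicate 2 or C57BL/6J replicate 4 (adjusted p from 0.0742 to 0.0974). Plin2, which coats droplets, was at 279, 217 and 155 against 515, 191 and 319 CPM and was not called (log2 fold change -0.66, SE 0.29, adjusted p = 0.203).

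Lipoprotein genes differed in both directions. Of 31 tested, 3 were higher and 1 lower in A/J (12.9%, against 7.84% of all genes tested). Lpl (ENSMUSG00000015568, chromosome 8, 68880491 to 68907448), the lipase that releases fatty acids from lipoproteins and is little expressed in adult hepatocytes, was at 76.2, 59.99 and 50.01 CPM in A/J and 7.25, 11.9 and 5.38 CPM in C57BL/6J. For Lpl the log2 fold change was 2.92 (SE 0.40, adjusted p = 1.19e-05). All 3 A/J libraries were above both C57BL/6J and the means of the 7 other strains, which ranged from 2.27 to 15.7 CPM. Macrophages also make this enzyme. The Kupffer marker sums given above overlapped between the strains, and the stellate sums, which also overlapped, had a mean of 143 CPM in A/J and 95.4 CPM in C57BL/6J; the part of these cells in the Lpl difference was not tested. Sort1, a sorting receptor for apolipoprotein B particles, was at 56.2, 55.3 and 79.6 against 16.9, 32.2 and 21.6 CPM. For Sort1 the log2 fold change was 1.44 (SE 0.28, adjusted p = 0.000881). Pltp, the plasma phospholipid transfer protein, was lower, at 8.63, 11.2 and 12.4 against 49.9, 62.5 and 85.3 CPM. For Pltp the log2 fold change was -2.61 (SE 0.46, adjusted p = 0.000316). Apoa4 was higher (log2 fold change 1.10, SE 0.34, adjusted p = 0.0481), but not when any 1 of the libraries other than A/J replicate 2 was left out (adjusted p from 0.0526 to 0.272). Apoa1, the main protein of HDL, did not overlap, at 12829, 9924 and 15002 against 6959, 7559 and 6377 CPM, and missed the threshold (log2 fold change 0.85, SE 0.27, adjusted p = 0.0576). Apob was not called (log2 fold change 0.43, SE 0.21, adjusted p = 0.258).

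Genes of glucose and bile acid handling were called at shares of 4.44% and 5.88%, near the 7.84% of all genes. Of 45 tested for glucose handling and insulin signalling, 1 was higher and 1 lower. Pck2, the mitochondrial phosphoenolpyruvate carboxykinase, was lower at 0.457, 0.515 and 0.672 against 2.02, 2.55 and 2.23 CPM. For Pck2 the log2 fold change was -2.03 (SE 0.36, adjusted p = 0.000408). Grb10, an adaptor that dampens insulin receptor signalling, was higher at 1.005, 1.68 and 2.21 against 0.923, 0.7802 and 0.841 CPM (log2 fold change 0.95, SE 0.27, adjusted p = 0.0279), a call lost without any 1 library other than A/J replicate 1 (adjusted p from 0.0551 to 0.215). Pck1, the cytosolic gluconeogenic enzyme, was not called (log2 fold change -0.21, SE 0.53, adjusted p = 0.909). Of 34 bile acid genes, 1 was higher (Slc51b, a subunit of the basolateral bile acid exporter, log2 fold change 1.73, SE 0.50, adjusted p = 0.031) and 1 lower (Cyp39a1, an oxysterol hydroxylase, log2 fold change -0.93, SE 0.27, adjusted p = 0.0301). Without A/J replicate 2 the bile acid calls were 3 higher and 0 lower. Slc51b was not called without A/J replicate 1, A/J replicate 3, C57BL/6J replicate 1 or C57BL/6J replicate 4 (adjusted p from 0.0539 to 0.173), nor Cyp39a1 without A/J replicate 2, C57BL/6J replicate 2 or C57BL/6J replicate 4 (adjusted p from 0.0711 to 0.165). Cyp7a1, the rate-limiting enzyme of bile acid synthesis, varied widely within each strain, at 56.4, 274 and 188 against 23.7, 163 and 59.5 CPM, and was not called (log2 fold change 1.08, SE 0.66, adjusted p = 0.416).

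The called genes of amino acid catabolism were all lower in A/J. Of 56 genes of the urea cycle and amino acid breakdown, 0 were higher and 8 lower in A/J (14.3%, against 7.84% of all genes tested). The median was -0.24, and 45 had fitted values below 0. The count was 3 without A/J replicate 3, 5 without A/J replicate 2 or C57BL/6J replicate 2, and 3 on the 6 libraries alone. At an unadjusted p under 0.05, which 19.3% of all genes tested passed, 2 were higher and 17 lower. DESeq2, which called 9.46% of all genes tested, called 1 higher and 11 lower. Gls2 (ENSMUSG00000044005), the liver glutaminase that feeds ammonia to the urea cycle, was at 177, 159 and 124 CPM in A/J and 301, 273 and 285 CPM in C57BL/6J. For Gls2 the log2 fold change was -0.90 (SE 0.16, adjusted p = 0.000446). Both strains were under the means of all 7 others (315 to 604 CPM), with A/J lower still. Gnmt, which disposes of excess methionine as sarcosine, had the same position, at 306, 339 and 278 against 557, 609 and 557 CPM (log2 fold change -0.90, SE 0.21, adjusted p = 0.00641) and 782 to 1421 CPM elsewhere. Ivd, an enzyme of leucine breakdown, was lower (log2 fold change -0.89, SE 0.16, adjusted p = 0.000516), as was ornithine aminotransferase, Oat (log2 fold change -1.32, SE 0.34, adjusted p = 0.0138, adjusted p = 0.0918 without A/J replicate 3). Asl, the urea cycle lyase, was at 159.9, 171 and 160.3 against 239, 314 and 256 CPM (log2 fold change -0.72, SE 0.21, adjusted p = 0.0289), and its call was lost without A/J replicates 1, 2 or 3 or C57BL/6J replicate 2 (adjusted p from 0.0621 to 0.142). The other called genes were Haao, Slc1a2 and Csad, and the call of each was lost in 4 of the 6 fits that left out 1 library (adjusted p from 0.0602 to 0.676, the highest for Csad without C57BL/6J replicate 1). Cps1, which catalyses the entry step of the urea cycle, was not called (log2 fold change -0.37, SE 0.23, adjusted p = 0.433).

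Secreted plasma proteins were among the transcripts whose CPM differed most in absolute terms. Albumin mRNA, Alb, was at 225739, 196208 and 266109 CPM in A/J and 110350, 141784 and 139156 CPM in C57BL/6J (log2 fold change 0.81, SE 0.23, adjusted p = 0.03), and Trf, the iron carrier transferrin, at 39871, 38564 and 51074 against 20619, 26557 and 27102 CPM (log2 fold change 0.80, SE 0.21, adjusted p = 0.0138). The strains did not overlap for either gene, but Alb was called in 1 of the 6 fits that left out a library (adjusted p from 0.0579 to 0.142 in the other 5), and Trf was not called without A/J replicate 3 or C57BL/6J replicate 1 (0.0738 and 0.0849). Of the alpha-1-antitrypsin genes, which encode protease inhibitors, Serpina1e was at 849.6, 931 and 1912 against 109, 98.8 and 157 CPM (log2 fold change 3.34, SE 0.45, adjusted p = 9.69e-06); Serpina1a and Serpina1c were higher by 0.63 and 0.71, and both lost their calls without A/J replicate 3 or any 1 C57BL/6J library (adjusted p from 0.0538 to 0.237). The family sum was 33158 to 51548 CPM in A/J and 26834 to 30202 CPM in C57BL/6J. Serpina3k, a kallikrein-binding inhibitor, was at 14541, 9640 and 21645 against 6908, 6928 and 7084 CPM (log2 fold change 1.13, SE 0.29, adjusted p = 0.014), with adjusted p = 0.123 without A/J replicate 3 and 0.052 without C57BL/6J replicate 2.

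Complement and acute phase genes differed gene by gene. Of 46 complement and coagulation genes tested, 4 were higher and 2 lower (13%), and of 35 acute phase genes 2 were higher and 1 lower (8.57%, near the 7.84% of all genes). The acute phase count was 1 without C57BL/6J replicate 2 and 1 on the 6 libraries alone. C8a, a subunit of the membrane attack complex, was at 637, 643 and 903 CPM in A/J and 139, 254 and 234 CPM in C57BL/6J (log2 fold change 1.80, SE 0.29, adjusted p = 9.66e-05), and its partner C8b was higher too (log2 fold change 1.10, SE 0.32, adjusted p = 0.0309), though not without A/J replicate 3 (adjusted p = 0.207) or C57BL/6J replicate 1 (adjusted p = 0.18). Apcs, serum amyloid P, which marks debris for clearance, was at 575, 765 and 889 against 66.8, 175 and 149 CPM. For Apcs the log2 fold change was 2.51 (SE 0.30, adjusted p = 1.28e-06). The coagulation factor genes F11 and F12 went opposite ways (log2 fold change 0.93, SE 0.21, adjusted p = 0.0038 and log2 fold change -1.01, SE 0.21, adjusted p = 0.00218). C4a was at 91.6, 112 and 123 against 4.58, 6.65 and 9.67 CPM (log2 fold change 3.97, SE 0.25, adjusted p = 2.82e-11), but its near-identical neighbour C4b accounts for most counts of the pair, and their sum was 2991 against 2901 CPM. C1s2 and C1rb, paralogs of the complement proteases, had means of 45.5 and 21.98 CPM in A/J against 0.168 and 0.235 CPM in C57BL/6J.

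Classical and non-classical MHC class I genes present peptides to T cells and vary in copy and sequence between haplotypes. With antigen processing genes, 1 was higher and 6 lower of 28 tested (25%, against 7.84% of all genes tested), with a list median of -0.02. Without A/J replicate 1 the calls were 3 higher and 5 lower and the median 0.13, and the median was -0.43 without A/J replicate 2 and -0.13 without C57BL/6J replicate 1. H2-K1 (ENSMUSG00000061232) was at 344, 661 and 530.4 CPM in A/J and 1605, 2048 and 2248 CPM in C57BL/6J. For H2-K1 the log2 fold change was -1.94 (SE 0.26, adjusted p = 1.11e-05). H2-T23, which encodes Qa-1, was at 35.2, 59.5 and 44.8 against 282, 429.6 and 438 CPM (log2 fold change -3.04, SE 0.31, adjusted p = 9.58e-08), and C57BL/6J was above the 7 other strains for both genes. H2-T22 was also lower (log2 fold change -2.66, SE 0.22, adjusted p = 1.96e-09), and H2-T10 was higher at 36.2, 67.01 and 44.1 against 1.85, 2.14 and 1.93 CPM (log2 fold change 4.64, SE 0.29, adjusted p = 1.47e-11). Counts of these genes were fractional in all 6 libraries. Whether reads were aligned to 1 reference or to a genome of each strain is not given in the sources used here, so for such divergent genes the number of reads that align may differ between strains. Of 50 interferon response genes, edgeR called 0 and DESeq2 called 1. At an unadjusted p under 0.05, 3 were higher and 8 lower, near the 19.3% of all genes tested that passed that level. EdgeR called 2 higher and 0 lower without A/J replicate 1, and 0 higher and 2 lower without A/J replicate 2. The summed interferon list was 1085, 2052 and 1132 CPM in A/J and 1170, 1397 and 1266 CPM in C57BL/6J, so A/J replicate 2 was the high library, and the list median of -0.07 became -0.50 without it.

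**Figure D4:**
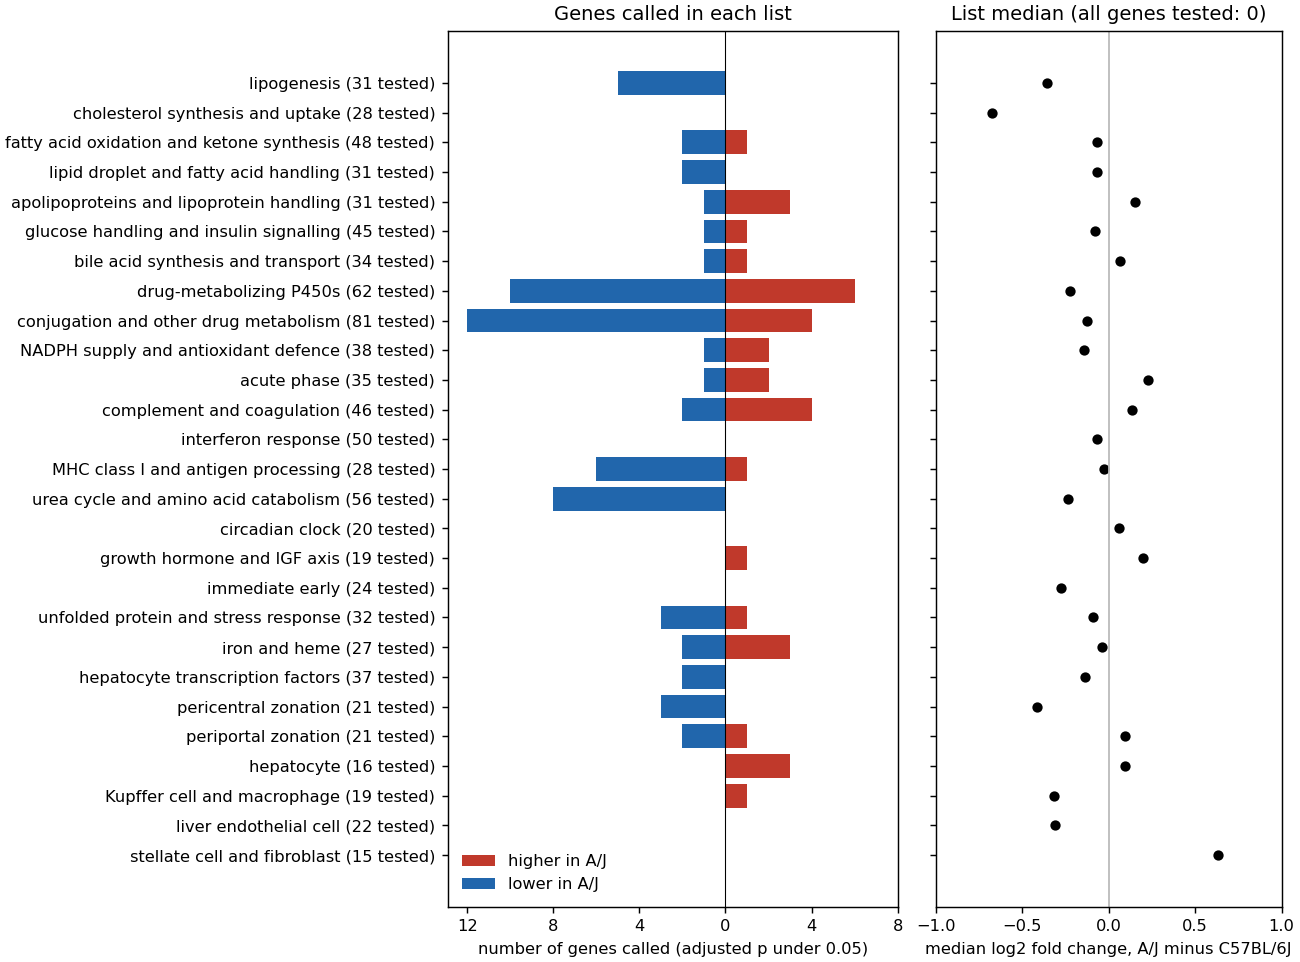
For each pathway or cell type list with 10 or more genes tested, bars give the number of genes called higher (red, right) or lower (blue, left) in A/J, and points give the median log2 fold change of the list, for which all genes tested give 0. The lipogenesis, lipid droplet, amino acid catabolism, hepatocyte transcription factor and pericentral lists have lower calls only. The growth hormone, hepatocyte and Kupffer cell lists have higher calls only. The cholesterol list has the lowest median of the lists drawn (-0.68) with 0 calls.

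Transcription factor and growth hormone axis genes were called at shares near the 7.84% of all genes. Of 37 hepatocyte transcription factor genes tested, edgeR called 0 higher and 2 lower (5.41%; 1 without A/J replicate 1 or C57BL/6J replicate 1), DESeq2 0 and 2, and 1 was higher and 6 lower at an unadjusted p under 0.05. Hnf4a, the master regulator of hepatocyte identity, was not called (log2 fold change -0.35, SE 0.19, adjusted p = 0.339). Of 19 growth hormone and IGF genes, 1 was called (5.26%; 2 without C57BL/6J replicate 1): Igfbp3, an IGF carrier, at 2.88, 4.82 and 8.098 against 1.299, 0.903 and 1.68 CPM (log2 fold change 2.02, SE 0.50, adjusted p = 0.0101), lost without A/J replicate 3 (adjusted p = 0.0842) or C57BL/6J replicate 2 (adjusted p = 0.0632). Igf1 was not called (log2 fold change 0.40, SE 0.24, adjusted p = 0.412). The 20 circadian clock genes gave 0 calls by edgeR, 0 by DESeq2 and 0 at an unadjusted p under 0.05, and 1 lower by edgeR without A/J replicate 1. The 24 immediate early genes tested gave 0 by edgeR, 5 at an unadjusted p under 0.05 and 2 by DESeq2. Of all genes tested, 19.3% passed that unadjusted level and DESeq2 called 9.46%, so these counts were near the background. For the immediate early genes edgeR called 2 higher without A/J replicate 2, 1 higher without A/J replicate 3 and 1 lower without C57BL/6J replicate 2.

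Of 32 stress response genes, 1 was higher and 3 lower (12.5%), and 0 and 2 without A/J replicate 1, A/J replicate 3 or C57BL/6J replicate 1. Hspa8, the constitutive cytosolic chaperone, was at 153, 190.0 and 187 CPM in A/J and 643, 883 and 539 CPM in C57BL/6J (log2 fold change -1.96, SE 0.32, adjusted p = 0.000113), with fractional counts in all 6 libraries. Hspb1, a small heat shock protein, was at 0.822, 0.655 and 0.948 against 9.604, 4.39 and 2.36 CPM. For Hspb1 the log2 fold change was -2.75 (SE 0.51, adjusted p = 0.000626). Of 27 iron and heme genes, 3 were higher and 2 lower (18.5%): Alad, an enzyme of heme synthesis, was at 149, 185 and 132 against 94.9, 81.7 and 69.2 CPM (log2 fold change 0.92, SE 0.17, adjusted p = 0.000453), whereas Hfe, the hemochromatosis protein that senses iron, was lower (log2 fold change -0.78, SE 0.17, adjusted p = 0.00317). The 5 iron and heme calls became 2 without A/J replicate 3 and 3 without C57BL/6J replicate 1. Zonation lists were each called at 14.3%, against 7.84% of all genes, with 0 higher and 3 lower of 21 pericentral genes (Sult5a1, Oat and Slc1a2; 1 higher and 7 lower at an unadjusted p under 0.05, 0 and 3 by DESeq2), and 1 higher and 2 lower of 21 periportal genes. The 1 periportal gene that was higher, Hsd17b6, a steroid dehydrogenase, was at 908, 871 and 931 against 429.6, 306 and 271 CPM. For Hsd17b6 the log2 fold change was 1.43 (SE 0.25, adjusted p = 0.00026).

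Genes known to differ between male and female mouse liver were listed after values had been seen, and are given as a description. Of 16 female-predominant genes tested, 0 were higher and 5 lower in A/J, Sult3a1, Sult2a2, Cyp2b9, Cyp3a41a and Cyp3a41b, and of 13 male-predominant genes 4 were higher and 0 lower, Serpina1e, Cyp2d9, C8b and Cyp4a12a. These shares were 31.2% and 30.8%, against 7.84% of all genes. DESeq2 called 5 of the first list, all lower, and 5 of the other, all higher; at an unadjusted p under 0.05 the lists gave 1 higher and 7 lower, and 5 higher and 1 lower. Cyp3a41a was at 487, 1274 and 1174 CPM in A/J and 2749, 3962 and 4100 CPM in C57BL/6J (log2 fold change -1.88, SE 0.53, adjusted p = 0.0253), and the sum with its near-identical copy Cyp3a41b was 1023 against 3988 CPM. The summed male-predominant list was 1715 to 3420 CPM in A/J and 504 to 799 CPM in C57BL/6J, without overlap, and Serpina1e alone had means of 1231 and 122 CPM. Of the 13 genes 7 had fitted values above 0 and 6 below, and the list median of 0.29 became -0.21 without C57BL/6J replicate 2. With 1 library left out, the female-predominant calls numbered 1 without A/J replicate 3, 2 without A/J replicate 1, C57BL/6J replicate 2 or C57BL/6J replicate 4, and 3 without C57BL/6J replicate 1. The male-predominant calls numbered 2 without A/J replicate 3 or C57BL/6J replicate 1. Calls in the other direction also occurred: the female-predominant list gave 2 higher and 4 lower on the 6 libraries alone, and 1 higher and 5 lower with covariates or with no filter on low counts, and the male-predominant list gave 5 higher and 1 lower with no filter.

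The remaining genes with the largest fold changes are named by rule: the 15 largest in each direction among called genes whose libraries did not overlap and whose higher strain averaged 10 CPM or more. Prom2, a membrane-protrusion protein of epithelia (ENSMUSG00000027376), was at 39.7, 63.6 and 56.6 CPM in A/J and 0.103, 0.411 and 0.0841 CPM in C57BL/6J. For Prom2 the log2 fold change was 8.06 (SE 0.48, adjusted p = 5.76e-12). Slc28a1, a sodium-coupled importer of pyrimidine nucleosides, was at 10.7, 26.7 and 17.03 against 0.239, 0.411 and 0.631 CPM (log2 fold change 5.42, SE 0.55, adjusted p = 1.2e-07), and no other strain's mean exceeded 0.556 CPM. Tnfsf10, the death ligand TRAIL, was at 38.96, 74.3 and 61.1 against 2.91, 6.45 and 7.19 CPM (log2 fold change 3.40, SE 0.36, adjusted p = 2.63e-07), and A/J was above the 7 other strains (3.20 to 29.3 CPM). Abhd1, a hydrolase-fold protein, was at 78.9, 78.00 and 98.05 against 1.33, 1.81 and 3.49 CPM. For Abhd1 the log2 fold change was 5.28 (SE 0.29, adjusted p = 1.44e-12). Asic5, a bile acid-sensitive ion channel, was at 37.95, 11.8 and 35.6 against 1.74, 1.64 and 1.56 CPM (log2 fold change 4.11, SE 0.39, adjusted p = 4.33e-08), and was the 1 gene of the 30 with A/J above and C57BL/6J below all 7 other strain means. Arhgef10, a guanine nucleotide exchange factor, was higher as well (log2 fold change 3.10, SE 0.37, adjusted p = 1.68e-06). Eno1b, Rdh16f1 and Nat8f7, with log2 fold changes of 6.69, 6.22 and 3.91, belong to families of near-identical copies; Eno1 fell where Eno1b rose, and their sum was 167 CPM in A/J and 265 CPM in C57BL/6J.

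Among the largest falls, Acpp, prostatic acid phosphatase, an ectonucleotidase (ENSMUSG00000032561), had 3 counts over the A/J libraries against 1405 over the C57BL/6J libraries. Scaled by library size, the ratio was 415, with a 95% counting interval of 142 to 2020. Nnmt (ENSMUSG00000032271), nicotinamide N-methyltransferase, which consumes methyl groups and nicotinamide and has been tied to adiposity, was at 1.05, 3.18 and 4.15 CPM in A/J and 52.3, 119 and 74.3 CPM in C57BL/6J. For Nnmt the log2 fold change was -4.86 (SE 0.47, adjusted p = 4.33e-08). The A/J mean was under that of every other strain (19.3 to 245 CPM). Serpinb1a, an inhibitor of neutrophil proteases, was at 2.56, 3.42 and 2.73 against 37.3, 25.05 and 41.1 CPM. For Serpinb1a the log2 fold change was -3.57 (SE 0.39, adjusted p = 3.58e-07). Robo1, a guidance receptor, and St3gal6, a sialyltransferase, were lower by similar amounts (log2 fold change -4.85, SE 0.64, adjusted p = 7.97e-06 and log2 fold change -4.20, SE 0.46, adjusted p = 4.27e-07). Kpna2, a nuclear import adaptor, was at 1.14, 0.608 and 0.711 against 24.3, 23.7 and 24.4 CPM (log2 fold change -4.87, SE 0.41, adjusted p = 4.37e-09), with fractional counts in all 6 libraries. Mug2, a murinoglobulin protease inhibitor, was at 242, 104 and 224 against 1196, 1624 and 1662 CPM (log2 fold change -2.98, SE 0.36, adjusted p = 1.63e-06), whereas its paralog Mug1 was higher without passing the threshold (log2 fold change 1.06, SE 0.33, adjusted p = 0.0518), and their sum was 7687 against 5098 CPM.

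The 7 other strains placed these differences. Of the 30 genes, 7 had C57BL/6J above every other strain mean with A/J within their range, 1 (Cyp2c39) had C57BL/6J below them with A/J within, 6 had A/J above them with C57BL/6J within, 2, Nnmt among them, had A/J below them, and for 13 both strains lay within the range of the others.

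**Figure D5:**
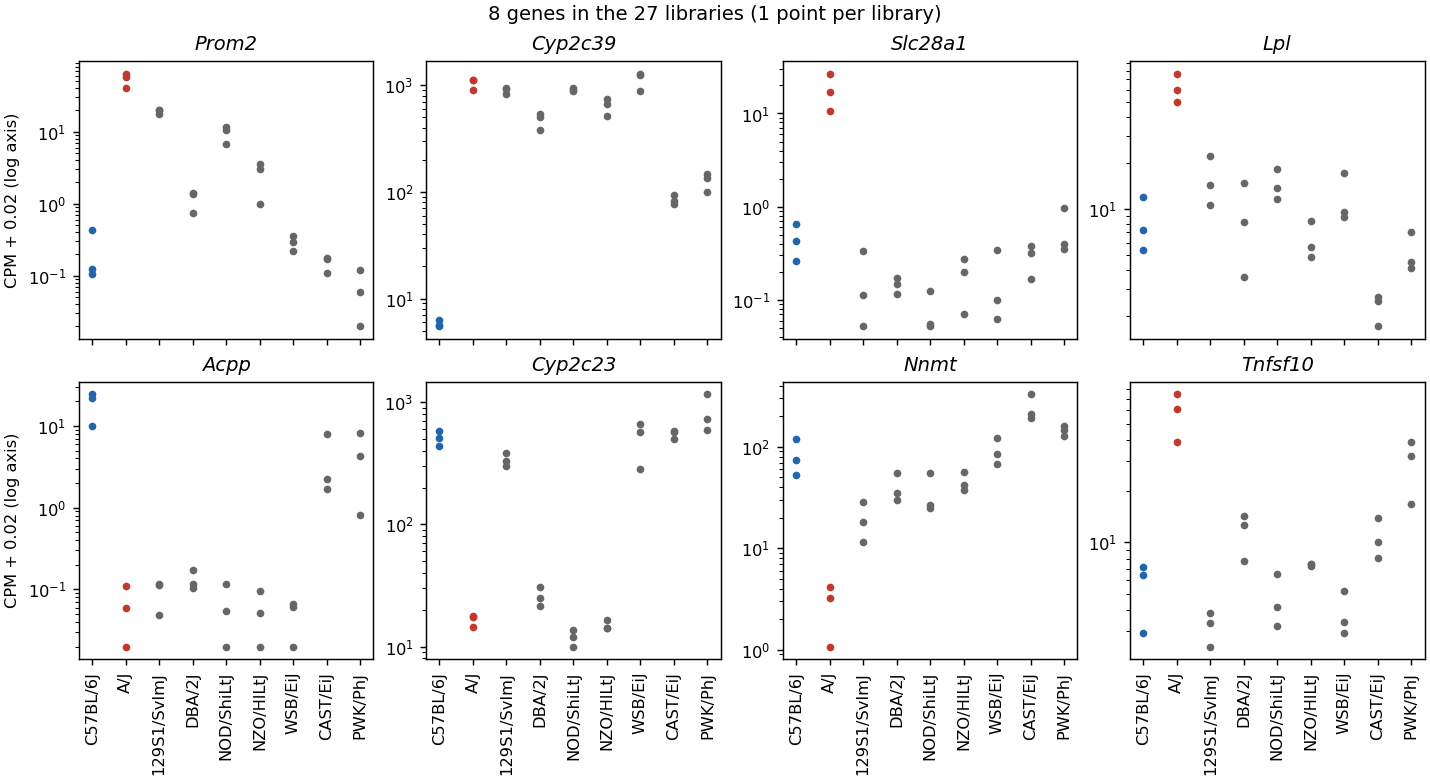
CPM plus 0.02 on a log axis of 8 genes in the 27 libraries, 1 point per library, with C57BL/6J in blue, A/J in red and the 7 other strains in grey. Slc28a1 and Lpl stand high in A/J alone, Tnfsf10 is highest in A/J with 1 PWK/PhJ library close to it, Nnmt stands low in A/J alone, Cyp2c39 stands low in C57BL/6J alone, Cyp2c23 is low in A/J and in several other strains, and Acpp is highest in C57BL/6J.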

How the data were processed

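RNA-seq libraries from hepatocytes of 9 inbred strains were analysed from 1 table of estimated counts per Ensembl gene that the authors deposited; 11.1% of its values are not whole numbers. The libraries were made with a polyadenylated RNA kit, per the labels' protocols, and no strand-specific counting is stated, so reads of antisense or overlapping genes cannot be told apart. FastQC 0.11.5, DESeq2 and the builds GRCm38 and mm10 are named in the submitters' processing notes; the aligner, the counter and whether strain genomes were used are not given in the sources used here. A/J sequence was not analysed here. No column lacked a sample (0 columns).

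Estimated counts were rounded to whole numbers. Genes were filtered by strain with filterByExpr, scaled by TMM and tested with edgeR 4.0.16 (limma 3.58.1, R 4.3.3; glmQLFit and glmQLFTest) on all 27 libraries with strain as the only term, contrast A/J minus C57BL/6J, with Benjamini-Hochberg adjustment over 14482 genes. Standard errors are the log2 fold change divided by the square root of F. Symbols and positions come from GENCODE M21 (42462 of 43346 identifiers matched), and promoter windows from RefSeq. A fold or ratio for genes with few counts is the ratio of summed counts. Each sum was first divided by the strain's summed library size after TMM scaling. The exact 95% interval covers counting error only. The p-values measure the spread between the libraries labelled biological replicates. The code was tested on simulated data with known changes.

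Alternatives were DESeq2 1.42.0, RLE scaling, no filter, a mean of at least 10 counts, unrounded counts, the 6 libraries alone, Kupffer and endothelial covariates, a replicate block, each of the 6 libraries left out, and, chosen after seeing the data, removal of a trend with GC content (a value for 99.1% of genes tested). Named genes were strain checks, the 15 largest rises and 15 largest falls among called genes whose libraries did not overlap and whose higher strain averaged 10 CPM or more (predicted genes, pseudogenes and Mup genes passed over), the 10 largest CPM differences, and members of 23 pathway and 8 cell type lists; the members and lists were chosen with earlier results of these data known, and 2 lists of sex-biased genes and the gene families were added after values were seen. Some genes of these lists count in the totals but are not reported here by name.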

Additional observations from a re-analysis of the deposited data

How the results depend on the processing

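Of the 136 called genes named by the rule, 82 were called under all 15 alternatives, and the number that lost their call was largest for the 6 libraries alone (40). On those 6 libraries 624 genes were called, 307 higher and 317 lower in A/J, and 593 of them were also called in the fit to 27 libraries; fewer samples estimate the spread there. With Kupffer and endothelial covariates 851 genes were higher (1682 called in all), and the cause was not tested. Leaving out 1 library at a time gave 903 to 996 calls, 417 to 501 higher and 457 to 526 lower. By list, the covariates gave 8 lipogenesis, 14 amino acid, 12 complement and coagulation, 8 lipoprotein, 6 lipid droplet, 6 bile acid, 6 periportal and 5 stellate calls, no filter on low counts gave 9 lipogenesis and 5 cholesterol calls, and the 6 libraries alone gave 2 lipogenesis, 2 stress and 2 iron and heme calls. DESeq2 called 1370, the GC correction 1123 and RLE scaling 1143. Xist and Mlxipl, neither called, changed sign without C57BL/6J replicate 1; over the fits that left out 1 library their log2 fold changes ranged from -0.11 to 0.61 and from -0.15 to 0.48. With a replicate block 891 genes were called, 420 higher and 471 lower, and 863 were shared; no label says that a number marks a shared animal, batch or day. The deviations of same-numbered libraries correlated at 0.207 for A/J 1 with C57BL/6J 1 and 0.023 for A/J 2 with C57BL/6J 2, and over the 76 pairs of all strains at a median of 0.023 (-0.293 to 0.275), against -0.005 for other pairs. Since 1 count was worth up to 0.0468 CPM, genes with a few counts have wide errors.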

Other observations

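Major urinary protein genes, which encode pheromone-binding proteins secreted by the liver and form an array of near-identical copies, were passed over in naming genes and are described here as a family chosen after its values were seen. Of 20 Mup genes tested, 4 were higher and 9 lower in A/J (65%, against 7.84% of all genes tested), and the counts of all 13 called members were fractional in all 6 libraries, so single members are uncertain and the sum is the firmer quantity. The summed level was 9037, 3940 and 16000 CPM in A/J replicates 1, 2 and 3, and 28319, 37041 and 36510 CPM in C57BL/6J replicates 1, 2 and 4. The strains did not overlap, and the mean was 3.52-fold higher in C57BL/6J. Mup15 had estimated counts that round to 0 in the A/J libraries and 84855 over the C57BL/6J libraries, at least 8360-fold higher against a floor of 3 counts per library. Mup18 was at 1.14, 1.22 and 1.62 CPM in A/J and at 3920, 5124 and 4902 CPM in C57BL/6J (log2 fold change -11.76, SE 0.41, adjusted p = 2.68e-16). Mup2 went the other way, at 1008, 437 and 1816 CPM against 7.96, 10.4 and 10.1 CPM (log2 fold change 6.84, SE 0.44, adjusted p = 2.63e-11).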
